A study of Mus musculus with 13 samples.

Results

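Of 22997 gene symbols with counts in sorted mouse bone marrow plasma cells, 23 were close to silent in every library of wild-type and MYC-transgenic mice and expressed in at least 2 of 4 transplanted tumour lines. A gene belonged to this set when it stood at 2 CPM (a gene's count per 1000000 counts of its library) or less in all 6 non-tumour libraries and at 20 CPM or more in every library of at least 2 tumour lines. The genes were thus chosen by their levels in these libraries, and their low level in the non-tumour mice and their high level in the tumour lines are descriptions and were not tested. The rule gave 26 genes, and 3 of these were left out because they were on a list of 7 genes kept apart from the set beforehand.

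Each library came from 50000 bone marrow cells sorted as CD138+ B220- CD45.2+, a gate for plasma cells, from mice of the strain labelled C57/BL6. The non-tumour groups were wild-type mice (WT, 3 libraries) and mice with the genotype Vκ*MYC; IgG1-Cre (V, 3 libraries), in which the MYC transgene is under control of a kappa light chain variable gene and becomes active in B cells that have undergone somatic hypermutation. The tumour groups were recipients of transplanted cells: lines D1 (2 libraries), D4 (1 library) and D5 (2 libraries) of the genotype Vκ*MYC; Nras LSL Q61R/+; IgG1-Cre, called VQ, whose Cre is expressed from the IgG1 locus and removes the stop cassette before the mutant Nras allele, and the transplantable line tVk12653 (2 libraries). Every recipient of a line carries cells of the same tumour, so replicates of a line are not independent tumours, and for D4 there is no replicate. WT and V cells were not transplanted. A comparison of tumour with non-tumour libraries thus holds genotype, line and transplantation at once, which cannot be told apart. Sex-linked RNA differed too and cannot be separated from these. Ddx3y, on the Y chromosome, was at 46.1 to 136 CPM in WT, 0 in V and at most 0.470 in the tumour libraries. Xist, RNA of the inactive X chromosome, was at 1427, 2.72 and 3.85 CPM in WT. It was at 1434 to 2544 CPM in V and 3.12 to 97.1 CPM in the tumour libraries.

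Total counts were 2096815 to 3640249 in the WT and V libraries and 2880511 to 8512281 in the tumour libraries. The ceiling of 2 CPM equalled 4.19 to 7.28 counts in the WT and V libraries, and 3 counts, the limit that a count of 0 allows, equalled 0.824 to 1.43 CPM there and 0.352 to 1.04 CPM in the tumour libraries (counting error only). Of the plasma cell genes, Sdc1, which encodes CD138, and Irf4 were expressed in all 7 tumour libraries, at 367 to 1372 and 1519 to 2568 CPM, but others were low in some lines. Jchain, the joining chain of IgM and IgA, was at 42.8 to 6459 CPM in the tumour libraries and 33712 to 62283 CPM in WT and V. Mzb1, a chaperone of antibody assembly, was at 7.03 and 6.94 CPM in tVk12653 and 0.540 CPM in D4, against 282 to 543 CPM in WT and V, and Tnfrsf17, which encodes BCMA, was at 9.11 and 3.05 CPM in D1, against 87.4 to 144 CPM. Ptprc, which encodes the CD45 used in the sort, stood at 1.62 CPM in D4, and the D5 libraries held 1.86 and 6.61 CPM, against 479 to 836 CPM in WT and V and 175 to 298 CPM in D1 and tVk12653. The RNA of D4 and D5 therefore carried almost none of the CD45 message that their sort label implies, and each result below is given by line so that D4 and D5 can be read apart from the others.

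Plasma cells are terminally differentiated B cells that keep a restricted programme of secretion and survival genes, while genes of the germ line, nervous system, gut, lens or ear are normally kept silent in them. Multiple myeloma, the plasma cell cancer for which Vκ*MYC mice are a model, is known to express such tissue-restricted genes in some tumours, with cancer/testis antigens as the best known class. The 23 genes here belong to different tissues and families. Rec114 and 4930502E18Rik are germline or testis genes, and Xlr belongs to an X-linked, lymphocyte-regulated family. The others include surface receptors and adhesion proteins, secreted ligands, enzymes, a transcriptional co-activator and structural proteins.

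The promoters of 5 of these genes are shown because they span the range of the set in CpG content and carry the motif matches described here. All are RefSeq sequences of GRCm38.p6, 250 bases before to 50 bases after the first listed start of the gene, written 5′ to 3′ on the gene's own strand. In Eya4 (chr10:23349894-23350193, minus strand) and Sis (chr3:72967814-72968113, minus strand) the capitals mark CG dinucleotides. In Rec114 (chr9:58741510-58741809, minus strand) and 4930502E18Rik (chrX:53724581-53724880, plus strand) they mark CACGTG, the E-box bound by MYC and by many other factors. In Clstn3 (chr6:124464735-124465034, minus strand) they mark TGACGTCA, the full cyclic AMP response element.
Eya4: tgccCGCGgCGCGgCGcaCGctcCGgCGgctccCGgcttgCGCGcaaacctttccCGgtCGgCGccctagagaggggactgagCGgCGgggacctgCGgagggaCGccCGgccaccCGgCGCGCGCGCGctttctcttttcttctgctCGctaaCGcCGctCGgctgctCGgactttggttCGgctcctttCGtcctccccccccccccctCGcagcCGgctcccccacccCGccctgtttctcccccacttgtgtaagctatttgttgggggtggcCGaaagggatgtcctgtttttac
Sis: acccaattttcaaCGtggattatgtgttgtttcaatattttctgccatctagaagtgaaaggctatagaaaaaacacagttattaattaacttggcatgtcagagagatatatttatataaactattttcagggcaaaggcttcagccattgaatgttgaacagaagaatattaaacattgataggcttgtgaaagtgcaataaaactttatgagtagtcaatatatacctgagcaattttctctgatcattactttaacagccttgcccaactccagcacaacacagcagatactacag
Rec114: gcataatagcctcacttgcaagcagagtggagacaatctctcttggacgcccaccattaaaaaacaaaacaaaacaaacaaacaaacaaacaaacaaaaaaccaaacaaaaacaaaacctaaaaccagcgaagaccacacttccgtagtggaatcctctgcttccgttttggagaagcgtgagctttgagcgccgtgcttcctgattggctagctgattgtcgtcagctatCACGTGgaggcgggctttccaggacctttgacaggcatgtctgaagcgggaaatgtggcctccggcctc
4930502E18Rik: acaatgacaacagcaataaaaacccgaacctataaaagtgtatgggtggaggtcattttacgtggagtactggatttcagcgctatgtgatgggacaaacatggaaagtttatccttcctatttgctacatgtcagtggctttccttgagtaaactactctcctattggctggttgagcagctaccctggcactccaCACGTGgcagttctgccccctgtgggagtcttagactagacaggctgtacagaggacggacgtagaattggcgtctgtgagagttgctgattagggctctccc
Clstn3: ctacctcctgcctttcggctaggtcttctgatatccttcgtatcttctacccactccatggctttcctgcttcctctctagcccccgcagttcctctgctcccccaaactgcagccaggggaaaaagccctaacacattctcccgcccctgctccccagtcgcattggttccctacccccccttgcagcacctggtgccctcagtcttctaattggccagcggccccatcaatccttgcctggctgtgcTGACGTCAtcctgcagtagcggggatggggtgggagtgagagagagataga

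Of the 23 genes, 19 had an entry in the promoter table, and Il23a, Pcdhb17, Phactr3 and Slc47a1 had none. Eya4 held 36 CG dinucleotides in 300 bases, the most of the 19, and Sis held 1, the fewest. Over the 19 promoters the median was 8 CG dinucleotides, against 7 over all 27018 promoters of the table and 21 over the 9062 promoters of genes with enough counts for the tumour test described below. The median GC content was 58.3% for the set, 52.7% for all promoters and 61.0% for the tested genes.

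Of 6 motifs searched on both strands, CACGTG was found in 2 of the 19 promoters (10.5%), in 7.24% of all promoters and in 10.7% of those of tested genes. Its 2 matches, in Rec114 and 4930502E18Rik, began 19 and 53 bases before the start site. TGACGTCA was found in Clstn3 alone (5.26%, against 1.88% of all and 3.43% of tested genes), beginning on the base before the start site. GGGCGG was found in 10 promoters (52.6%), between the share of all promoters (35.9%) and that of tested genes (65.4%). CCGGAA was found in 2 (10.5%, against 15.2% and 30.3%), TATAAA in 3 (15.8%, against 14.2% and 7.07%) and TGANTCA, of which no match overlaps one of TGACGTCA, in 1 (5.26%, against 7.94% and 4.60%). These matches describe letters in the windows and say nothing about binding.

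By line, 19 of the 23 genes reached 20 CPM in every library of D1, 12 in D4, 8 in D5 and 13 in tVk12653. The genes shared by D1 and tVk12653 but by neither of the others were the largest group, with 8 genes: 4930502E18Rik, Bcam, Cep126, Pcdhb17, Rec114, Sis, Slc47a1 and Xlr. Adm2, Fam20a, Mst1, Phactr3 and Samd4 passed in D1 and D4, Cryaa, Eya4 and Strc in D4 and D5, and Arhgap29 and Enpp3 in D1 and D5. Cacnb3 and Clstn3 passed in all 4 lines, Epha7 in D1, D4 and tVk12653, Aebp1 in D1, D5 and tVk12653, and Il23a in D4 and tVk12653. Without the single D4 library, 14 genes met the rule, and without V replicate 1, the shallowest library, 32 did. In bulk samples such as these, fewer cells that express a gene and less of its RNA per cell cannot be told apart.

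Summed over the 23 genes, the level was 7.69 to 15.1 CPM in the WT and V libraries, which is 26 to 39 counts per library. In the tumour libraries the sum was 1245 and 1209.7 CPM in D1, 809.6 CPM in D4, 661 and 649 CPM in D5, and 896 and 1192.5 CPM in tVk12653. Between 14 and 16 of the 23 genes had at least 1 count in a WT or V library, and 18 to 23 in a tumour library. A total of 10541 symbols stood at 2 CPM or less in all 6 WT and V libraries, and without the genes kept apart 94 of them passed in 1 tumour line, 19 in 2 lines, 2 in 3 lines and 2 in all 4.

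**Figure D1:**
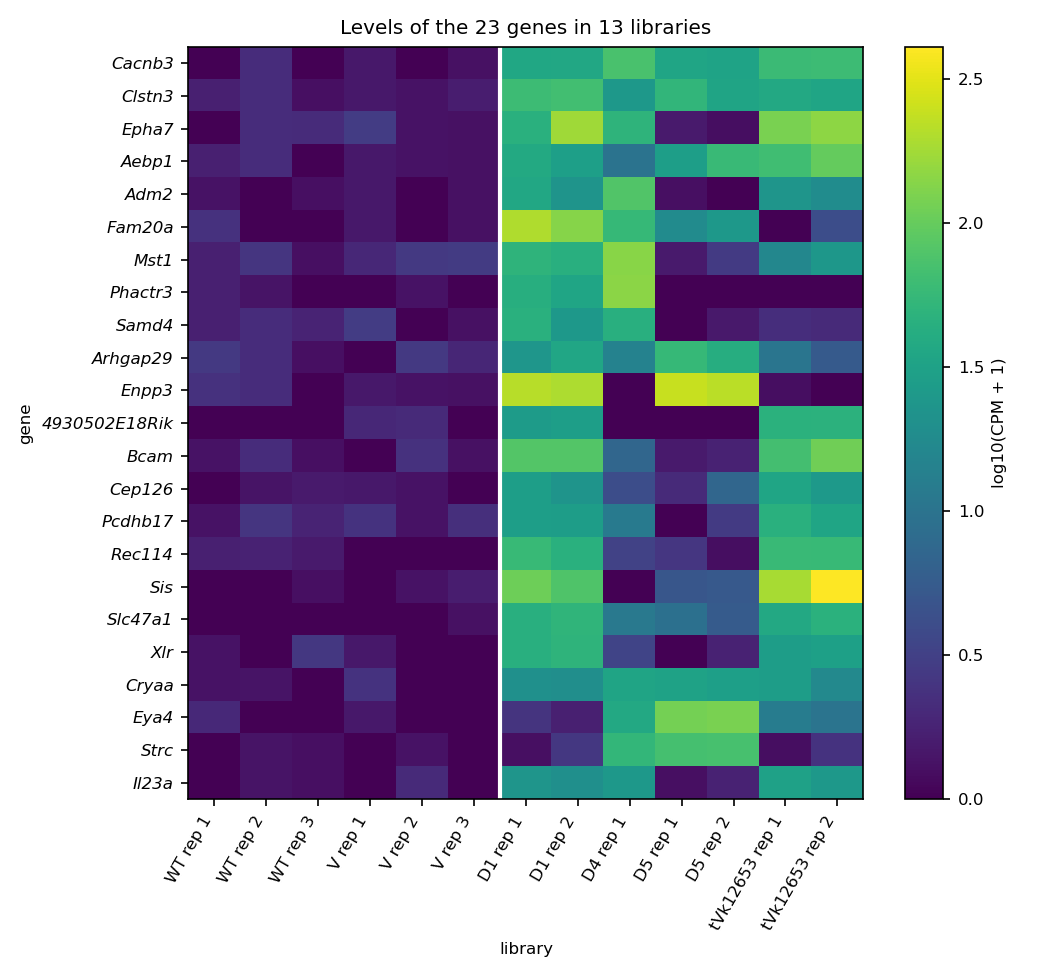
Level of each of the 23 genes (vertical axis) in each of the 13 libraries (horizontal axis), as the colour of log10(CPM + 1), with genes ordered by the lines in which they reached 20 CPM. The 6 WT and V libraries are dark throughout, at 2 CPM or less, Cacnb3 and Clstn3 at the top are light in all 7 tumour libraries, and 11 of the 23 genes are at 2 CPM or less in both D5 libraries.

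The genes near the limits of the rule were close to genes left outside it. Epha7 and Samd4, with 1.91 CPM in V replicate 1, and Mst1, with 1.84 CPM in V replicate 3, were just inside the ceiling, and Fkbp10 (2.15 CPM), Papln (2.20 CPM) and Cdh19 (2.38 CPM) were just outside it. At the floor of 20 CPM, the lowest library of the second line was at 21.4 CPM for Adm2, 21.5 CPM for Cep126 and 22.6 CPM for Arhgap29, just inside, and at 19.9 CPM for Naaladl2, 19.6 CPM for Atp6ap1l and 19.3 CPM for Fads2b, just outside. The floor also hides expression in lines that did not pass. Cryaa, which passed in D4 and D5 only, stood at 19.7 and 18.4 CPM in D1 and at 27.4 and 16.0 CPM in tVk12653.

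Among surface and adhesion proteins, Clstn3 encodes calsyntenin 3, a synaptic adhesion protein of the cadherin superfamily (GRCm38 chr6:124430759-124464794, GENCODE annotation, minus strand). It stood at 60.3 and 65.7 CPM in D1, 23.6 CPM in D4, 51.4 and 32.8 CPM in D5 and 37.1 and 33.7 CPM in tVk12653. Its 6 WT and V libraries held 0.678, 1.16, 0.275, 0.477, 0.342 and 0.614 CPM. Its gap to WT and V follows from the rule, and among the tumour libraries D4 was lowest and D1 highest.

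Epha7 encodes a receptor tyrosine kinase for ephrin-A ligands that guides axons in the developing brain (chr4:28813131-28967499, plus strand). It stood at 45.0 and 174 CPM in the D1 libraries, 48.9 CPM in D4, 120.0 and 147 CPM in tVk12653, and 0.533 and 0.254 CPM in D5. Epha7 was at 0, 1.16 and 1.10 CPM in WT and 1.91, 0.342 and 0.307 CPM in V. The 2 D1 recipients differed by 3.88-fold, the widest gap within a line among genes of the set at 20 CPM or more in both recipients. Bcam encodes the basal cell adhesion molecule, the Lutheran receptor for laminin alpha 5 (chr7:19756131-19771016, minus strand). It was at 80.3 and 81.2 CPM in D1, 67.6 and 110.1 CPM in tVk12653, 6.21 CPM in D4 and, for D5, 0.533 and 0.762 CPM, so that D4 lay between the high and the silent lines. Bcam was at 0.339, 1.16 and 0.275 CPM in WT and 0, 1.37 and 0.307 CPM in V.

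Pcdhb17 encodes a beta protocadherin, one of a cluster of adhesion genes that give neurons their individual surface identity. It was at 27.7 to 44.8 CPM in D1 and tVk12653, 10.8 CPM in D4 and at most 1.78 CPM in D5. Several other genes of the cluster were also expressed in tumour lines and at or near 0 in D5. Pcdhb16 stood at 28.2 and 29.1 CPM in D1, 4.59 CPM in D4, 0 CPM in both D5 libraries and 28.4 and 21.9 CPM in tVk12653. Pcdhb22 had another order of lines, with 40.3 CPM in D4 and at most 7.29 CPM in any other tumour library. Beta protocadherins are similar in sequence, and how reads shared between them were counted is not given in the sources used here.

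**Figure D2:**
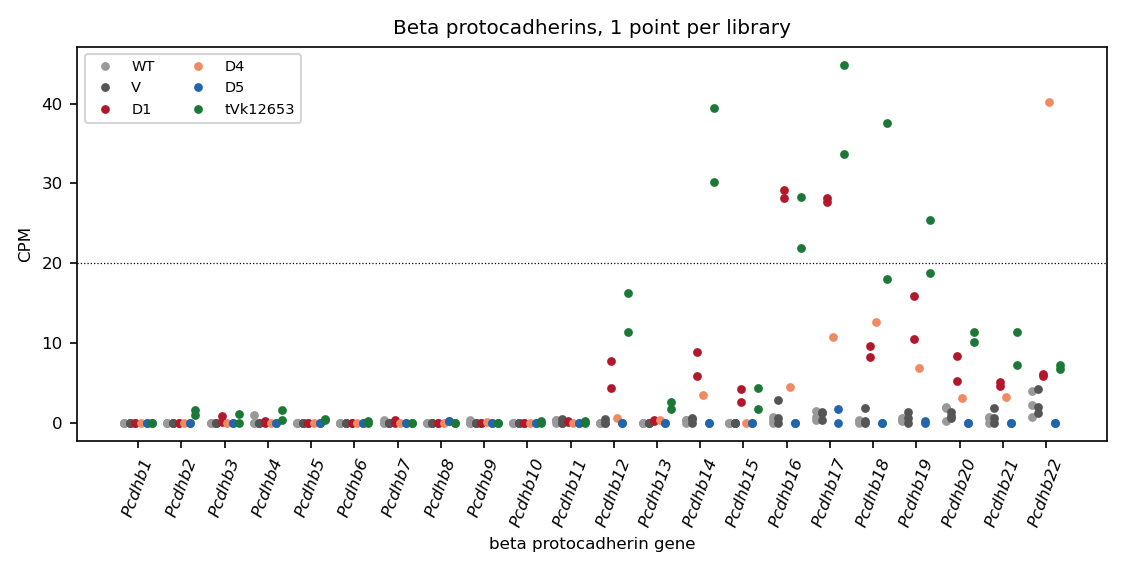
Level in CPM (vertical axis) of the beta protocadherin genes (horizontal axis, in order of their gene numbers) by library, with a point for each library and a colour for each group. The dotted line marks 20 CPM, which D1 or tVk12653 points pass for Pcdhb14, Pcdhb16, Pcdhb17, Pcdhb18 and Pcdhb19 and the D4 point for Pcdhb22, while D5 points lie at 1.78 CPM or less.

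Of 21 other beta protocadherins, 11 stood at 2 CPM or less in all 13 libraries and 5 reached 20 CPM in at least 1 tumour library. In an edgeR quasi-likelihood test of the 4 tumour lines, each with the counts of its recipients summed, against the mean of WT and V, 7 of the 21 had enough counts, 4 were called higher and none lower. Over all 11361 genes tested, 18.6% were called higher and 15.4% lower (34.0% in either direction), all at an adjusted p under 0.05. The 4 were Pcdhb14 (adjusted p = 0.0184), Pcdhb16 (adjusted p = 0.0290), Pcdhb18 (adjusted p = 0.0174) and Pcdhb19 (adjusted p = 0.0139), all by edgeR. Each stood at 0 to 2.86 CPM in WT and V and entered the test through the tumour lines alone, so that higher was the only call it could receive, and the few counts in WT and V do not fix a fold change. The lists of related genes used here and for the other families were written after the 23 genes were known, and the relatives named were chosen after their values were seen.

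Cacnb3 encodes a beta subunit that brings voltage-gated calcium channels to the cell surface (chr15:98630840-98644529, plus strand). Its 7 tumour libraries were at 35.0 and 36.1 CPM in D1, 72.0 CPM in D4, 33.6 and 32.0 CPM in D5 and 59.6 and 61.1 CPM in tVk12653. In WT and V it was at 0, 1.16, 0, 0.477, 0 and 0.307 CPM, so that 3 of 6 libraries had no count. D1 and D5 stood close together, below D4 and tVk12653. Cacna1e, a channel-forming alpha subunit, stood at 467 to 785 CPM in WT and V and 3.56 to 190 CPM in the tumour libraries (log2 fold change -3.15 ± 0.81 (SE), edgeR adjusted p = 0.0154).

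Slc47a1 encodes a transporter that exports organic cations, best known from kidney and liver (chr11:61343401-61378345, minus strand). A single count in V replicate 3 was all that the 6 WT and V libraries held. In tumour libraries it was at 43.2 and 50.3 CPM in D1, 36.8 and 45.5 CPM in tVk12653, 10.3 CPM in D4 and, for D5, 8.26 and 4.57 CPM. D4 and D5, which did not pass the floor, thus also lay above every WT and V library, while the gap of D1 and tVk12653 follows from the rule.

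Of the secreted ligands, Adm2 encodes adrenomedullin 2, a peptide hormone of the calcitonin family (chr15:89322720-89324731, plus strand). It was highest in D4, at 79.0 CPM, followed by D1 at 35.9 and 21.4 CPM, tVk12653 at 22.1 and 17.7 CPM, and D5 at 0.266 and 0 CPM. Adm2 was at 0.339, 0 and 0.275 CPM in WT and 0.477, 0 and 0.307 CPM in V. Mst1 encodes macrophage stimulating protein, a ligand made mainly by liver (chr9:108080436-108085003, plus strand). It too was highest in D4, at 141 CPM, with 48.5 and 43.9 CPM in D1, 15.02 and 22.9 CPM in tVk12653 and 0.533 and 1.78 CPM in D5. Mst1 was at 0.678, 1.55 and 0.275 CPM in WT and 0.954, 1.71 and 1.84 CPM in V. Its exons share 195 bases (8.62% of its exon length) with exons of Rnf123 on the opposite strand. Rnf123 was at 203 to 262 CPM in WT and V and 105 to 233 CPM in the tumour libraries. Both ligands thus followed the same order of lines, D4 first and D5 silent.

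Il23a encodes the p19 chain of interleukin 23, which needs the p40 chain encoded by Il12b to form the cytokine (chr10:128296139-128298752, minus strand). It was at 22.0 and 18.9 CPM in D1, 23.8 CPM in D4, 0.266 and 0.762 CPM in D5 and 30.5 and 24.0 CPM in tVk12653. Il23a was at 0, 0.388 and 0.275 CPM in WT and 0, 1.03 and 0 CPM in V. D1 missed the floor through 1 library, and D5 was the only line at the level of WT and V. Il12b had no count in any library. Of 7 other chains and receptors of interleukin 12 and 23, 3 had enough counts. All 3 (Il12a, Ebi3 and Il12rb1) were called lower in the tumour lines, against 15.4% of all genes tested. In the tumour libraries Il12a was at most at 0.588 CPM and Il12rb1 at most at 0.540 CPM. Both entered the test through WT or V alone, so that lower was the only call they could receive.

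Fam20a encodes a pseudokinase of the secretory pathway that activates the kinase FAM20C and is needed for tooth enamel (chr11:109669749-109722279, minus strand). It was at 201 and 136 CPM in D1, 55.6 CPM in D4, 17.0 and 23.6 CPM in D5, and 0 and 3.12 CPM in tVk12653. Fam20a was at 1.36, 0 and 0 CPM in WT and 0.477, 0 and 0.307 CPM in V. Fam20c, which encodes FAM20C, was at 0 to 0.946 CPM in the tumour libraries and 0.307 to 2.38 CPM in WT and V. Aebp1 encodes an extracellular matrix protein with a carboxypeptidase-like domain (chr11:5861947-5872088, plus strand). It was at 37.9 and 28.5 CPM in D1, 8.78 CPM in D4, 28.2 and 57.4 CPM in D5 and 63.7 and 97.2 CPM in tVk12653. Aebp1 was at 0.678, 1.16 and 0 CPM in WT and 0.477, 0.342 and 0.307 CPM in V. Fam20a and Aebp1 had opposite extremes, with tVk12653 lowest for Fam20a and highest for Aebp1.

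Sis encodes sucrase-isomaltase, a digestive enzyme of the intestinal brush border (chr3:72888557-72967863, minus strand). It was at 185 and 409 CPM in the tVk12653 libraries, 108 and 76.9 CPM in D1, 3.99 and 4.32 CPM in D5 and 0 CPM in D4. The WT and V libraries held 0, 0, 0.275, 0, 0.342 and 0.614 CPM. The tVk12653 recipients differed by 2.21-fold, but both lay above D1, which lay above D5 and D4.

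Enpp3 encodes an ectonucleotidase that cleaves extracellular nucleotides and marks basophils and mast cells (chr10:24772406-24842823, minus strand). It was at 214 and 193 CPM in D1, 244 and 219 CPM in D5, 0 CPM in D4 and 0.242 and 0 CPM in tVk12653. Enpp3 was at 1.36, 1.16 and 0 CPM in WT and 0.477, 0.342 and 0.307 CPM in V. Markers of basophils, mast cells and eosinophils, a list of 8 genes that does not hold Enpp3, summed to 369 to 809 CPM in WT and V. Enpp3 was at 0 to 1.36 CPM there because the rule required a low level, so nothing is read from its level beside that sum. In D5 that sum was 1.60 and 2.29 CPM, with 6 and 5 of the 8 genes at 0, and in D1 it was 40.9 and 15.04 CPM. It was also low in D4 (7.70 CPM) and tVk12653 (7.997 and 15.97 CPM), where Enpp3 was at or near 0. A low sum was thus found beside both high and low Enpp3. The part of such cells in the level of Enpp3 was not tested.

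Among the germline genes, Rec114 encodes a protein required for the DNA breaks that start meiotic recombination (chr9:58652850-58743964, minus strand). It was at 56.7 and 44.4 CPM in D1, 58.2 and 56.2 CPM in tVk12653, 2.30 CPM in D4 and, for D5, 1.60 and 0.254 CPM. Rec114 was at 0.678, 0.777 and 0.549 CPM in WT and 0, 0 and 0 CPM in V. Its exons share 344 bases (26.9% of its exon length) with exons of Nptn on the opposite strand, and Nptn was at 45.7 to 61.0 CPM in WT and V and 78.8 to 117 CPM in the tumour libraries, D4 and D5 included. The strand setting of the counting is not given in the sources used here.

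Xlr (chrX:53777118-53797706, minus strand) belongs to an X-linked, lymphocyte-regulated family with relatives in meiotic chromosomes, and 4930502E18Rik (chrX:53724826-53738441, plus strand) is named Ct55 in RefSeq, a cancer/testis antigen gene. Xlr was at 43.2 and 48.8 CPM in D1, 27.1 and 29.5 CPM in tVk12653, 2.43 CPM in D4 and, for D5, 0 and 0.762 CPM. Xlr was at 0.339, 0 and 1.65 CPM in WT and 0.477, 0 and 0 CPM in V. For 4930502E18Rik the D1 libraries were at 26.2 and 28.4 CPM and the tVk12653 libraries at 45.3 and 46.5 CPM, with no count in D4 or D5. 4930502E18Rik was at 0, 0 and 0 CPM in WT and 0.954, 1.03 and 0 CPM in V. These are the only 2 of the 23 genes whose starts lie within 100 kb of each other, at 72.9 kb. Both passed the floor in D1 and tVk12653 only, which was the most common pattern, with 8 genes of the set. In D4 they differed, with 2.43 CPM for Xlr and no count for 4930502E18Rik. Xlr is part of a multigene family, so its reads may be shared with close copies.

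Other genes of the same germline programmes were mostly at low levels. Of 8 other genes of the meiotic break machinery, 5 stood at 2 CPM or less in all libraries, and 1, Dmc1, reached 20 CPM. Dmc1, the meiotic recombinase, was at 34.2 and 32.6 CPM in tVk12653 and at most 2.43 CPM in any other library. Mei4, a direct partner of Rec114, was at 4.998 and 5.64 CPM in D1, 3.78 CPM in D4, 7.51 and 8.33 CPM in tVk12653 and 0 CPM in D5. In a wider list of 54 germline genes, 32 of the 51 measured stayed at 2 CPM or less in all libraries. Of 10 tested, 1 was called higher in the tumour lines, Xlr3a (edgeR adjusted p = 0.00158). It was at 0 to 1.71 CPM in WT and V and 2.94 to 8.13 CPM in the tumour libraries. Xlr3a entered the test through the tumour lines alone, so that higher was the only call it could receive.

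Among intracellular regulators, Eya4 encodes a phosphatase and transcriptional co-activator of the eyes absent family, needed in the ear and heart (chr10:23102963-23350786, minus strand). It was at 115 and 122 CPM in D5, 37.0 CPM in D4, 11.6 and 9.03 CPM in tVk12653 and 1.47 and 0.705 CPM in D1. Eya4 was at 1.02, 0 and 0 CPM in WT and 0.477, 0 and 0 CPM in V. Its relative Eya1 was at 167 and 161 CPM in D5 and 84.1 and 84.9 CPM in D1, with 0 CPM in D4, at most 0.347 CPM in tVk12653 and 9.54 to 27.1 CPM in WT and V. Both genes were thus highest in D5, but they differed in D1 and D4.

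Phactr3 encodes a regulator of protein phosphatase 1 and actin found in brain (chr2:178118975-178338492, plus strand). It was at 143 CPM in D4, with 42.0 and 33.5 CPM in D1 and no count in the D5 and tVk12653 libraries. Phactr3 was at 0.678, 0.388 and 0 CPM in WT and 0, 0.342 and 0 CPM in V. Samd4, which encodes an RNA-binding repressor of translation (chr14:46882854-47105815, plus strand), was at 45.0 and 24.0 CPM in D1, 43.2 CPM in D4, 0 and 0.508 CPM in D5 and 1.21 and 1.04 CPM in tVk12653. Samd4 was at 0.678, 1.16 and 0.824 CPM in WT and 1.91, 0 and 0.307 CPM in V. Both genes separated D1 and D4 from D5 and tVk12653.

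Arhgap29 encodes a GTPase-activating protein for RhoA (chr3:121952541-122016753, plus strand). It was at 54.9 and 41.4 CPM in D5, 22.6 and 34.0 CPM in D1, 13.4 CPM in D4 and 9.45 and 4.51 CPM in tVk12653. Arhgap29 was at 1.70, 1.16 and 0.275 CPM in WT and 0, 1.71 and 0.921 CPM in V. Cep126, a protein of centrosomes and cilia (chr9:8076461-8134294, minus strand), was at 28.2 and 21.5 CPM in D1, 33.2 and 24.3 CPM in tVk12653, 3.11 CPM in D4 and, for D5, 1.07 and 6.35 CPM. Cep126 was at 0, 0.388 and 0.549 CPM in WT and 0.477, 0.342 and 0 CPM in V. Neither gene was silent in all libraries of any line, the lowest being 1.07 CPM for Cep126.

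Strc encodes stereocilin, which links the stereocilia of outer hair cells (chr2:121363728-121387168, minus strand). It was at 69.0 and 69.4 CPM in D5, 52.8 CPM in D4, 0.294 and 1.64 CPM in D1 and 0.242 and 1.39 CPM in tVk12653. Strc was at 0, 0.388 and 0.275 CPM in WT and 0, 0.342 and 0 CPM in V. Cryaa encodes alpha A crystallin, a chaperone that makes up much of the lens (chr17:31677807-31681733, plus strand), and was at 30.9 and 29.0 CPM in D5 and 32.3 CPM in D4. Cryaa was at 0.339, 0.388 and 0 CPM in WT and 1.43, 0 and 0 CPM in V. Strc therefore separated D4 and D5 cleanly from the other lines, while Cryaa, with 16.0 to 32.3 CPM over all 7 tumour libraries, did not.

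Set against exon length, so that genes can be compared with each other, the highest line means per kilobase of exon were 62.3 CPM per kb for Mst1 and 60.9 CPM per kb for Adm2, both in D4. Fam20a followed at 46.4 CPM per kb in D1, Rec114 at 44.8 and Sis at 39.8 CPM per kb in tVk12653, and Enpp3 at 38.5 CPM per kb in D5. The long messages of Samd4 reached no more than 4.99 CPM per kb in any line.

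Recipients of the same line were close for most of the genes. The 19 genes at 20 CPM or more in both D1 libraries differed between them by a median of 1.26-fold, the 8 in D5 by 1.09-fold and the 13 in tVk12653 by 1.23-fold. Over all genes at that level, the medians were 1.11, 1.10 and 1.16-fold. A single gene of the set differed by more than 2-fold in each line, Epha7 in D1, Aebp1 (2.03-fold) in D5 and Sis in tVk12653, while 0.677%, 0.356% and 1.47% of all genes did so.

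D1 and D5 carry the same transgene and mutant Nras genotype and have 2 libraries each, and all genes were compared between them with a spread estimated over the 13 libraries. Of the 23 genes, 15 were called higher in D1, 2 higher in D5 and 6 were not called (edgeR, adjusted p under 0.05). Over all 12835 genes, 41.7% were called, 20% higher in D1 and 21.7% higher in D5, and 51.9% were called among the 7447 genes at 20 CPM or more in both libraries of either line. The rule read these same libraries, and 19 genes passed it in D1 and 8 in D5, so that on in D1 and off in D5 is built into the list. The 17 calls are therefore a description, are given without p-values, and nothing is read from their number.

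Of the genes called higher in D1, 11 had both D5 libraries at 1.78 CPM or less, namely 4930502E18Rik, Adm2, Bcam, Epha7, Il23a, Mst1, Pcdhb17, Phactr3, Rec114, Samd4 and Xlr, and no fold change is given for them because so few counts do not fix its size. The same holds for the genes called higher in D5, Eya4 with 5 and 6 counts in the D1 libraries and Strc with 1 and 14. The other 4 had 4 to 93 counts in each D5 library. Their D1 minus D5 log2 fold changes were 4.33 ± 0.46 (SE) for Sis, 2.92 ± 0.52 for Fam20a, 2.75 ± 0.37 for Slc47a1 and 2.59 ± 0.57 for Cep126. For Cep126, with 4 and 25 counts in D5, the value was 1.83 without D5 replicate 1 and 4.38 without D5 replicate 2. With DESeq2, Fam20a was not called (2.88).

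Markers of monocytes and macrophages, a list of 14 genes, differed between these lines too, at a sum of 782 and 899 CPM in D1 and 25.0 and 48.8 CPM in D5. They were at 1600 CPM in D4, 1062 and 1321 CPM in tVk12653 and 541 to 1857 CPM in WT and V. The low level of the 23 genes in WT and V was set by the rule and is not read beside these sums. Of the 14 markers, 4 were at 0 in D4 and 5 and 8 in tVk12653, against at most 1 in WT and V. In D1 this count was 1 and 2, and in D5 3 and 1. A sum can thus rest on part of the list. Dendritic cell markers, a list of 9 genes, summed to 126 and 156 CPM in D1, 59.1 and 63.5 CPM in D5, 93.5 CPM in D4, 43.6 and 51.4 CPM in tVk12653 and 92.0 to 142 CPM in WT and V. The part of such cells in the differences between D1 and D5 was not tested.

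The 6 genes without a call included both genes that passed in all 4 lines. Since replicates are recipients of 1 line, the p-values measure the spread between these samples only. Clstn3 differed by a log2 fold change of 0.47 ± 0.24 (SE, edgeR adjusted p = 0.142) and Cacnb3 by -0.0030 ± 0.30 (edgeR adjusted p = 1.00). For Enpp3 the value was -0.31 ± 0.21 (adjusted p = 0.259), for Aebp1 -0.50 ± 0.37 (adjusted p = 0.290), for Cryaa -0.77 ± 0.41 (adjusted p = 0.142) and for Arhgap29 -0.87 ± 0.40 (adjusted p = 0.0993), all by edgeR. In a fit of the D1 and D5 libraries alone, Arhgap29 (-0.81, adjusted p = 0.0141) and Cryaa (-0.74, adjusted p = 0.0142) were called higher in D5.

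**Figure D3:**
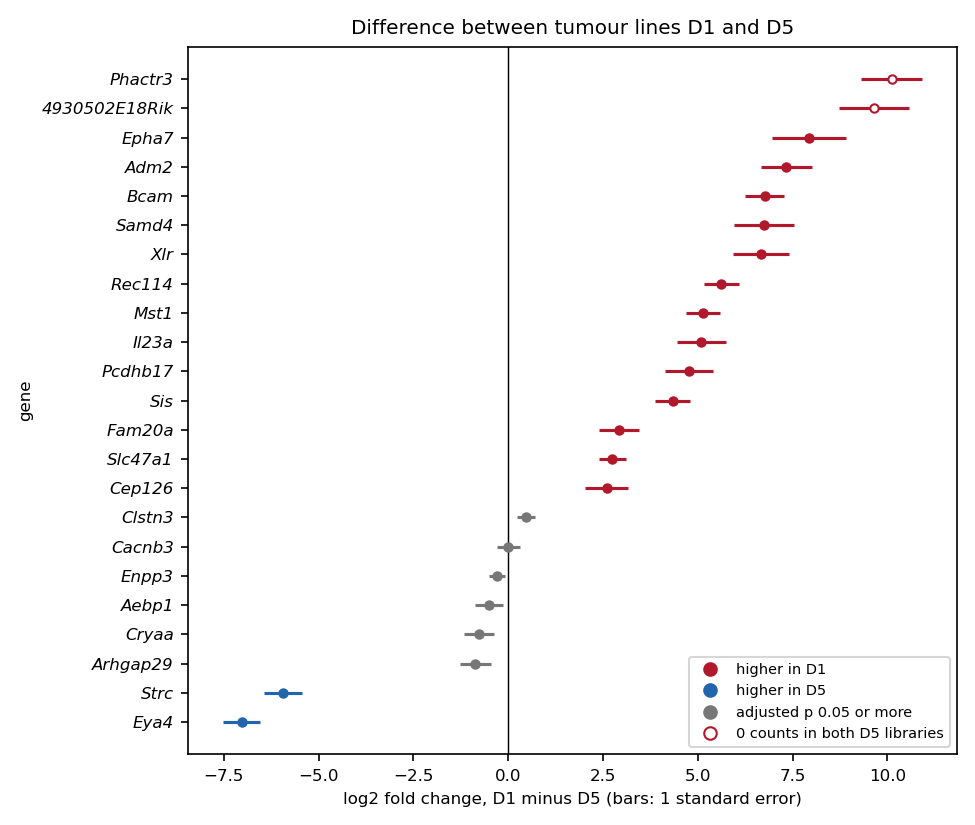
Fitted log2 fold change of D1 minus D5 (horizontal axis) with its standard error for each of the 23 genes (vertical axis), in red or blue where edgeR called it at an adjusted p under 0.05, in grey where it did not, and with open points where both D5 libraries had no count. In all, 15 genes lie to the right as higher in D1 and Eya4 and Strc to the left, and for the 13 genes at or near 0 in the lower line the plotted size depends on the fit and is not a measured fold.

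Around the 23 genes, other genes also differed between tumour and non-tumour libraries. Within 100 kb of a start of the set, counted from start to start, 60 other genes had enough counts for the tumour test, of which 26 were called higher (43.3%, against 18.6% of all genes tested) and 5 lower. The median log2 fold change of these neighbours was 0.53, against 0.05 over all genes. Within 50 kb, 16 of 32 were called higher (50%), and within 500 kb 80 of 267 (30%). Without the beta protocadherins the count within 100 kb was 22 of 53 (41.5%), an alternative chosen after seeing the data. These shares describe the neighbours and were not tested against other regions, and a neighbour close to 0 in WT and V could be called in 1 direction only.

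Of the 23 genes, 15 had a tested neighbour and 11 a neighbour called higher. Cbs, which makes cystathionine, starts 40.6 kb from Cryaa and was at 0 to 0.954 CPM in WT and V (edgeR adjusted p = 0.00144). Cbs was at 25.3 and 23.1 CPM in D5, 14.2 CPM in D4, 11.4 and 12.2 CPM in tVk12653 and 2.65 and 4.35 CPM in D1. Nectin2, an adhesion protein 20.5 kb from Bcam, differed by a log2 fold change of 2.84 ± 0.45 (SE, edgeR adjusted p = 0.00187). As with Bcam, its levels were higher in D1 (26.2 and 26.3 CPM) and tVk12653 (24.2 and 31.2 CPM) than in D5 (4.53 and 5.08 CPM). In D4, Nectin2 was at 15.5 CPM and Bcam at 6.21 CPM.

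Arg1, which encodes arginase 1, starts 84.7 kb from Enpp3. Its log2 fold change was 5.15 ± 1.35 (SE, edgeR adjusted p = 0.0170), carried by D5 at 1082 and 834 CPM and D1 at 91.7 and 52.3 CPM, against 3.49 to 9.91 CPM in WT and V, 2.57 CPM in D4 and 13.1 and 10.1 CPM in tVk12653. Enpp3 and Arg1 were therefore both highest in D5 and D1, and Arg1 was lower in D1 than in D5 (-3.88 ± 0.30, edgeR adjusted p = 1.37e-06), while Enpp3 gave no call there. Pgam2 near Aebp1 (3.70, adjusted p = 0.00139), C1ra near Clstn3 (3.59, adjusted p = 9.73e-04) and Adcy6 near Cacnb3 (3.23, adjusted p = 0.00279) were further neighbours called higher by edgeR.

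**Figure D4:**
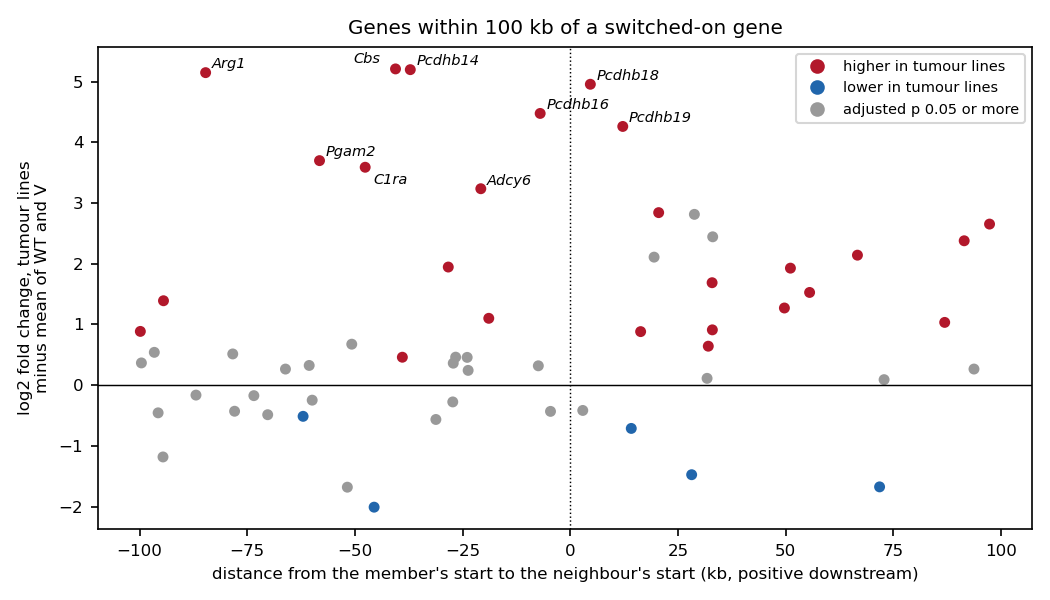
Log2 fold change of the tumour lines against WT and V (vertical axis) of each tested neighbour by its distance in kb from the start of the gene of the set (horizontal axis, positive downstream). Red points were called higher (26 of 60), among them Cbs, Arg1 and Pcdhb14 near the top, blue points lower (5) and grey points were not called.

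The gene lists of the tissues to which the 23 genes belong were described by their counts, to be read beside the 18.6% called higher, 15.4% called lower and median log2 fold change of 0.05 over all genes tested. Of 20 tested extracellular matrix genes outside the set, 10 were called higher and 4 lower (median 0.91). Among the 10 was Fkbp10, a collagen chaperone (edgeR adjusted p = 2.04e-04). It was at 0 to 2.15 CPM in WT and V and 15.4 to 92.3 CPM in the tumour libraries. Fkbp10 entered the test through the tumour lines alone, so that higher was the only call open to it. Any listed gene near 0 on 1 side of the comparison could likewise be called in 1 direction only. Of 11 tested receptor tyrosine kinases and ligands, 4 were higher and 2 lower, with a median of 0.90, and the list holds Epha7 itself. Of 20 tested calcium, potassium and sodium channels, 1 was higher and 7 lower, with a median of -0.36, while Cacnb3 is in that list. Of 4 tested neuronal and synaptic genes 1 was higher and 1 lower (median -1.40), and of 6 tested oncofetal genes 1 was higher and 2 lower (median -0.77).

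None of the 23 genes is on the lists of cell type markers that were summed to look for other cells. B cell markers summed to 645 to 1115 CPM in WT and V and 73.2 to 209 CPM in the tumour libraries, and T and natural killer cell markers to 68.2 to 153 and 0.694 to 14.0 CPM. Erythroid markers summed to 19.6 to 1060.7 and 6.10 to 31.2 CPM, and megakaryocyte markers to 3.42 to 51.6 and 1.02 to 8.53 CPM. Neutrophil markers summed to 1834 to 10230.4 CPM in WT and V and 89.4 to 1419 CPM in the tumour libraries, and stromal markers to 6.68 to 69.9 and 11.3 to 76.2 CPM. Endothelial markers, 10 genes, were higher in D1 than elsewhere, at 59.1 to 100.4 CPM in WT and V but 447 and 162 CPM in D1, against 6.60 to 45.0 CPM in D4, D5 and tVk12653. Nearly all of the D1 sum was Pecam1, at 438 and 159 CPM, Emcn was at 0 in all tumour libraries, and the part of such cells in the levels of genes high in D1 was not tested. Plasma cell markers summed to 45499 to 75964 CPM in WT and V and 12231 to 18673 CPM in the tumour libraries. Most of each WT and V sum was Jchain, at 33712 to 62283 CPM there and 42.8 to 6459 CPM in the tumour libraries. The gap between these sums is thus not a measure of the other markers on the list.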

How the data were processed

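Bulk RNA was sequenced from 13 libraries of sorted bone marrow cells. The kits were RNeasy Micro for extraction and SMARTer Stranded Total RNA-Seq Pico for libraries, per the labels' protocols. The deposited table holds the authors' raw read counts per gene symbol, without normalization. STAR 2.6.1d and genome build GRCm38.p6 were used, per the submitters' processing notes. How reads were counted, with which annotation and strand setting, was not given in the sources used here. All 13 columns were used and 0 left out.

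CPM were computed from column totals. Genes were kept with filterByExpr (minimum count 10, minimum total 15), scaled by TMM and tested by the robust quasi-likelihood method of edgeR 4.0.16 under R 4.3.3. P-values were adjusted by the Benjamini-Hochberg method across every gene of a fit, and 0.05 was the threshold. For the tumour comparison, counts of the recipients of a line were summed, so that 3 WT libraries, 3 V libraries and 4 lines entered, and the lines were set against the mean of WT and V. The difference between D1 and D5 came from a model of the 13 single libraries, with a mean for each of the 6 groups. The procedure was tested on simulated data. Alternatives were DESeq2 1.42.0, no filter, a minimum count of 30, other limits of the rule, other scaling factors, each library as a unit, the replicate number as a block, and leaving out each library or line. Coordinates and exon lengths come from GENCODE for GRCm38, and promoters from RefSeq.

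The genes and all lists were chosen with earlier results of these data known. Within the set, values in every library are given for genes expressed in all tumour libraries and for up to 4 genes of each pattern of lines. They are also given for the largest differences between D1 and D5, for genes just inside the limits and for genes near one another. The labels do not say outright that replicates are separate animals. The chi-square per degree of freedom between libraries of 1 group was 5.23 to 15.6, so none was a repeat count of another library. This value cannot tell a second library of the same animal from a library of another animal.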

Additional observations from a re-analysis of the deposited data

How the results depend on the processing

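The size of the set depends on its limits. From 23 genes it went to 7 with a ceiling of 1 CPM, 42 with a ceiling of 4 CPM, 60 with a floor of 10 CPM, 9 with a floor of 40 CPM and 4 when at least 3 lines had to pass. Leaving out single libraries gave 14 (without D4) to 32 genes (without V replicate 1), and TMM-scaled CPM gave 24. Between D1 and D5, 15 genes of the set were called higher in D1 and 2 in D5 whichever library was left out, over all genes 1763 to 2777 and 2070 to 2925 were called, and with the D1 and D5 libraries alone 4 of the set were higher in D5. For the tumour comparison, leaving out single libraries gave 1557 to 2158 genes higher and 1384 to 1785 lower. Of 437 values of D1 against D5 for the 23 genes under alternatives, 424 kept direction and call. Aebp1, not called, ranged from -0.93 without D5 replicate 1 to 0.11 without D5 replicate 2. Cacnb3, also not called and near 0, turned to 0.0028 without a filter, 0.016 with a minimum count of 30, 0.036 with D1 and D5 alone, and ran from -0.030 without D5 replicate 2 to 0.025 without D1 replicate 1 when single libraries were left out. Within 500 kb, 29.96% of neighbours were called higher, and promoters of tested genes held a median of 21 CG dinucleotides. Replicate numbers in the labels are shared by groups but do not mark a pair of samples, and the replicate block gave 2567 genes higher in D1 and 2855 higher in D5, against 2568 and 2783 without the block. For the tumour comparison, each library as a unit gave 2572 genes higher and 2216 lower, and 1579 and 1528 with the block, against 2110 and 1751. The cause of these shifts was not tested. In WT and V, levels under 0.824 CPM rest on fewer than 3 counts.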
